A study of Homo sapiens with 8 samples.

Results

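The genes described here encode the centromere, the kinetochore and the spindle assembly checkpoint. The 45 members were chosen by name, as CENP proteins, the KMN network, the MIS18 and SKA complexes, and checkpoint proteins, out of 78932 genes in the deposited tables, and all 45 were found by Ensembl identifier. They were measured in HCT116, a human colorectal cancer line, that carries a dTAG degradation tag on NUDT21, the gene of the small subunit of the cleavage factor CFIm. Every one of the 8 libraries had JTE-607, an inhibitor of the pre-mRNA 3′ end nuclease CPSF73. DMSO, the solvent, was added in 4 of them and dTAGV1, which directs the tagged protein to degradation, in the other 4. The comparison is therefore that of dTAGV1 with DMSO under JTE-607, and libraries without JTE-607 were not analysed here. Doses, treatment times and whether the tagged line is 1 clone are not given in the sources used here. Nor do they say that the replicates are separate cultures, so p-values measure the spread between these libraries, which may be technical.

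The centromere is marked by nucleosomes that hold CENP-A in place of histone H3, and HJURP with the MIS18 complex places new CENP-A there. The constitutive centromere associated network (CCAN) sits on this chromatin through the cell cycle, and the KMN network (KNL1, MIS12 and NDC80 complexes) assembles on it in mitosis and holds microtubules. The checkpoint proteins delay anaphase until every kinetochore is attached. Many of these genes are transcribed in waves that peak in G2 and mitosis, which makes them common markers of proliferating cells.

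Libraries held 8649238 to 9977205 reads, of which 3447842 to 4291256 fell on the sense strand of a gene. Expression is given as CPM, counts in each 1000000 of the scaled library. Reads came from transcript 3′ ends, so CPM was not divided by gene length, and levels are compared between libraries, not between genes. NUDT21 itself was at 32.2 ± 2.81 CPM with DMSO and 8.25 ± 2.62 CPM with dTAGV1 (SD, n = 4 each), with no overlap. The tag acts on the protein, which was not measured. Of 7 markers of colon epithelium, 6 were expressed enough to be tested and VIL1 was nearly absent (0.333 and 0.0755 CPM in the means). The 7 summed to 1683 to 1972 CPM with DMSO and 1353 to 1458 CPM with dTAGV1, but they did not move alike, since EPCAM was higher (log2 fold change 0.28) and KRT18, KRT19 and CLDN4 were lower (-0.60, -0.65 and -0.48). Of 8 markers of other cell types, COL1A1 alone exceeded 2 CPM in its mean and ALB was at 0 in every library. Mitochondrial reads took 7.98% to 8.56% of counts with DMSO and 9.22% to 10.4% with dTAGV1, and uniquely mapped reads that fell in no gene on the sense strand were 30.1% to 33.7% and 35.9% to 37.4%. The part of either in the results was not tested.

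Most centromere, kinetochore and checkpoint genes had fewer counted 3′ end reads with dTAGV1, after scaling of the libraries. Of the 45 genes, 42 had enough counts to be tested, 35 of them were lower, 0 were higher and 7 were not called. The test was edgeR's quasi-likelihood test, with a threshold of 0.05 on p-values adjusted over all genes by the Benjamini-Hochberg method. Among all 12618 tested genes, 28.5% were lower by the same test and 29.4% higher. At least 2-fold decreases were found for 22 of the 42 genes, against 9.23% of all tested genes. The median log2 fold change, with negative values for fewer counted reads upon dTAGV1, was -1.06 over the 42 genes and 0.015 over all tested genes. Every dTAGV1 library was below every DMSO library for 29 of the 42, and for 25.1% of all tested genes. The reverse, every dTAGV1 library above every DMSO library, held for 0 of the 42 and for 25.8% of all tested genes. In a bulk sample, fewer cells in G2 and mitosis and fewer counted reads from each such cell cannot be told apart.

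**Figure D1:**
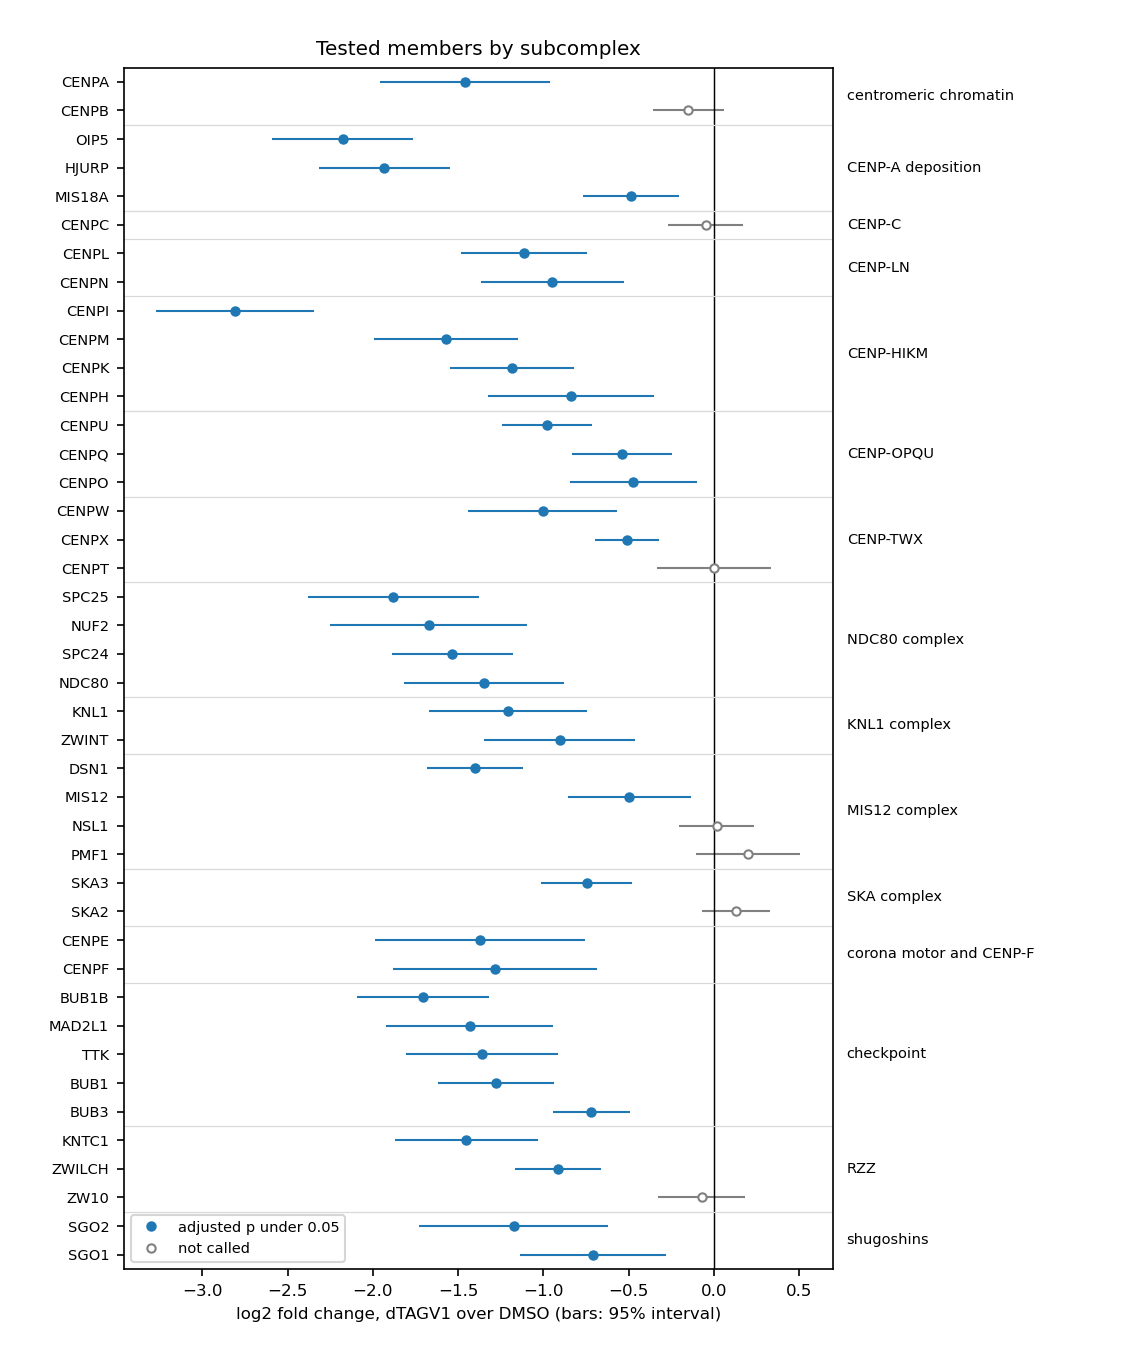
Log2 fold change of each of the 42 tested genes (x axis, dTAGV1 over DMSO, n = 4 each) with its 95% interval, grouped by subcomplex. Filled points passed the test and all 35 of them lie below 0, while the 7 open points lie between -0.15 and 0.20.

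The promoters of several of these genes carry the short element by which G2 and mitosis genes are known, the CHR (cell cycle genes homology region), bound by the MuvB core of the DREAM and MYB-MuvB complexes. The letters TTTGAA or the alternative form TTCGAA stand for it here, searched on both strands together with CCAAT, the NF-Y box that often lies upstream of a CHR. RefSeq promoters on GRCh38.p14 ran from 250 bases before to 50 after the start of transcription. They were used for the 33 of the 45 genes that had exactly 1 entry, and the rest were left out. The 7 genes not called are all among the 33, so every tested gene left out was lower. Windows from 120 bases before to 20 after the start are printed 5′ to 3′. They were chosen after the values were seen, and matches outside them are not shown. Capitals mark CHR and CCAAT matches on either strand. The first 6 genes fell at least 2-fold and have a CHR match close to the start that the window holds whole. NUF2 and CENPW fell too, but their matches run past the end of the window, and they are not printed. MAD2L1 and CENPF, which also fell at least 2-fold, have theirs beyond the window, at positions 25 and 41 after the start. They are not printed either. HJURP, which fell, has its match farther upstream.
OIP5 (chr15:41332572-41332711, minus strand): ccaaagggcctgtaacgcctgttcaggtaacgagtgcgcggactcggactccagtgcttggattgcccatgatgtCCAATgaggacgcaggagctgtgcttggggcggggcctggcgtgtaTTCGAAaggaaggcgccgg
SPC25 (chr2:168890411-168890550, minus strand): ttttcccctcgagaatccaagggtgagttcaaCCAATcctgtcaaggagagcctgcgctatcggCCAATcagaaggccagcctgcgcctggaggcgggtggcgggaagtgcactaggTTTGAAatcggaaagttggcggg
BUB1B (chr15:40160949-40161088, plus strand): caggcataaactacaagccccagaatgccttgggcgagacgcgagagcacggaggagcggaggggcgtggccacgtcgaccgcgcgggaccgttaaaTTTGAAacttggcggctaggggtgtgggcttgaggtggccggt
CENPA (chr2:26785936-26786075, plus strand): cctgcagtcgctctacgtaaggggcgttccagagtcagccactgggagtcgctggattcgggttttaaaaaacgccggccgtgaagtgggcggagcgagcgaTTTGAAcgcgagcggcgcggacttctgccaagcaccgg
NDC80 (chr18:2571437-2571576, plus strand): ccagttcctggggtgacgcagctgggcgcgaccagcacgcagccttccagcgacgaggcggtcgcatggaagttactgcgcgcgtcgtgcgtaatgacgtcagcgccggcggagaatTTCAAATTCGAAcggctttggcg
BUB1 (chr2:110678044-110678183, minus strand): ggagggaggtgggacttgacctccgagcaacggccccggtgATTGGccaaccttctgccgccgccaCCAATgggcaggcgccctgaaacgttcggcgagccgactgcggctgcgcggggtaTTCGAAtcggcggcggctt
HJURP (chr2:233854516-233854655, minus strand): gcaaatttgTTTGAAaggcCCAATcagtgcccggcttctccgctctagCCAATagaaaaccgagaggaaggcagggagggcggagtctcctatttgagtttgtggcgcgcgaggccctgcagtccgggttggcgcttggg
CENPI, SPC24, DSN1 and CENPE had the largest decreases among genes with a promoter at hand and no CHR match in it. The RefSeq start used for CENPI lies inside its GENCODE gene, which begins at 101098218. The sequence before that beginning was not searched, so a match there would be missed. CENPA, SPC25 and NUF2, which have a match, also begin farther upstream in GENCODE.
CENPI (chrX:101100938-101101077, plus strand): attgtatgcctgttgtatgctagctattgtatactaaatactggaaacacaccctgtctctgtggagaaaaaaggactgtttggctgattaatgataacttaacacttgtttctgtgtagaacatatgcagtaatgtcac
SPC24 (chr19:11155763-11155902, minus strand): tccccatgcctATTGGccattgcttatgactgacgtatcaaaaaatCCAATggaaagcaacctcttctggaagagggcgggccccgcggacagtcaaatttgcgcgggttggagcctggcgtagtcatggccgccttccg
DSN1 (chr20:36773744-36773883, minus strand): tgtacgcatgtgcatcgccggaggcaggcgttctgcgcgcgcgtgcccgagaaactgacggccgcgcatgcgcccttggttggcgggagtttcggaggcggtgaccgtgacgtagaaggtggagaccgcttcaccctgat
CENPE (chr4:103198324-103198463, minus strand): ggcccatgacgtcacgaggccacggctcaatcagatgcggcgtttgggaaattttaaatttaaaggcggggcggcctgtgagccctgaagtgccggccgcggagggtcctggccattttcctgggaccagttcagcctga
The 7 genes that were not called all had a promoter at hand, and they are shown whether or not they hold a match.
CENPC (chr4:67545484-67545623, minus strand): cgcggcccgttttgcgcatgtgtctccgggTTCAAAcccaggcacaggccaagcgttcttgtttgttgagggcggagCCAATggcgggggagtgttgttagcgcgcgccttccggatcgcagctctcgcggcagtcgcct
ZW10 (chr11:113773673-113773812, minus strand): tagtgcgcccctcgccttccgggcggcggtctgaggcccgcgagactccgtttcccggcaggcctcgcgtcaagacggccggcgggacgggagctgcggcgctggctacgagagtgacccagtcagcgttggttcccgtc
CENPT (chr16:67847674-67847813, minus strand): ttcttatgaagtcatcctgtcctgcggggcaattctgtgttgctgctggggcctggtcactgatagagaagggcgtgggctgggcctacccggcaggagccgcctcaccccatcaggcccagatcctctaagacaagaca
SKA2 (chr17:59155167-59155306, minus strand): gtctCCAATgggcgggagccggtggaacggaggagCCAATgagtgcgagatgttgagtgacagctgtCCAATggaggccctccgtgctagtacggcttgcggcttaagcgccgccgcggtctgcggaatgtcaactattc
PMF1 (chr1:156212887-156213026, plus strand): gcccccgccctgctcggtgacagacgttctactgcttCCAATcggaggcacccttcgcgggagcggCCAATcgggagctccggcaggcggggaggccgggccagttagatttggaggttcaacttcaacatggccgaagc
NSL1 (chr1:212791758-212791897, minus strand): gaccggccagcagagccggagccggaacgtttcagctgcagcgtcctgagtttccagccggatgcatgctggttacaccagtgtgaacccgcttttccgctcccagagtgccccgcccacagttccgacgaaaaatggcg
CENPB (chr20:3786721-3786860, minus strand): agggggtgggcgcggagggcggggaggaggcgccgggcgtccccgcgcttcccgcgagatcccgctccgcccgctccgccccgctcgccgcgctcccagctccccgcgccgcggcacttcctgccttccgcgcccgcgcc
Among the printed windows, genes of both kinds held CHR or CCAAT matches and genes of both kinds held none. The windows were picked by outcome and cut short, so this describes them alone. ZW10, which was not called, has a CHR and a CCAAT match upstream of its window, at 224 and 146 bases before the start. CENPC, which was not called, has a CHR and a CCAAT match in its window, while the windows of CENPI, DSN1 and CENPE, which fell, hold neither.

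A CHR match was found in 18 of the 33 promoters (54.5%), against 16.4% of 35116 promoters of all genes in the table. It was present in 11% of the 6607 tested genes with 1 promoter there. Of the 17 tested genes with a match, 15 were lower, with a median log2 fold change of -1.28. Of the 14 tested genes without one, 9 were lower, with a median of -0.73. CENPI is among them, though only a start inside its GENCODE gene was searched. Over the 6607 tested genes with a promoter, 35.1% of those with a match and 29.5% of those without were lower, with medians of -0.049 and -0.0060. The difference between members with and without a match was not tested. The tested members left out for want of a single promoter, all of them lower, are in neither group. A match that begins between 30 bases before and 20 bases after the start was held by 11 of the 33 promoters (33.3%). Among the 6607 tested genes with 1 promoter, 2.03% held one. That window was set after the positions were seen. The members with such a match were BUB1, BUB1B, CENPA, CENPN, CENPW, NDC80, NUF2, OIP5, SGO1, SKA3 and SPC25. All 11 were lower, with a median of -1.35. Of the 6607 tested genes with 1 promoter, 134 had such a match and 71 of them were lower, with a median of -0.44. The 2 genes with a match that were not called, ZW10 and CENPC, have it at 224 and 90 bases before the start. An upstream match was also found in genes that fell, at 111 bases before the start in HJURP and, as an additional match, at 247 bases in SPC25. CCAAT was present in 60.6% of the 33 promoters and in 34.6% of all promoters. The E2F motif, searched on both strands as TTGGCGC and in the variant forms TTCGCGC or the letters TTCCCGC, was present in 36.4% and 11%. Among the 6607 tested genes with a promoter, the shares were 38.3% for CCAAT and 19.2% for the E2F motif. Genes with and without CCAAT had medians of -0.99 and -1.35, and those with and without an E2F match -0.98 and -1.09. A match of letters is a description and shows no binding.

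**Figure D2:**
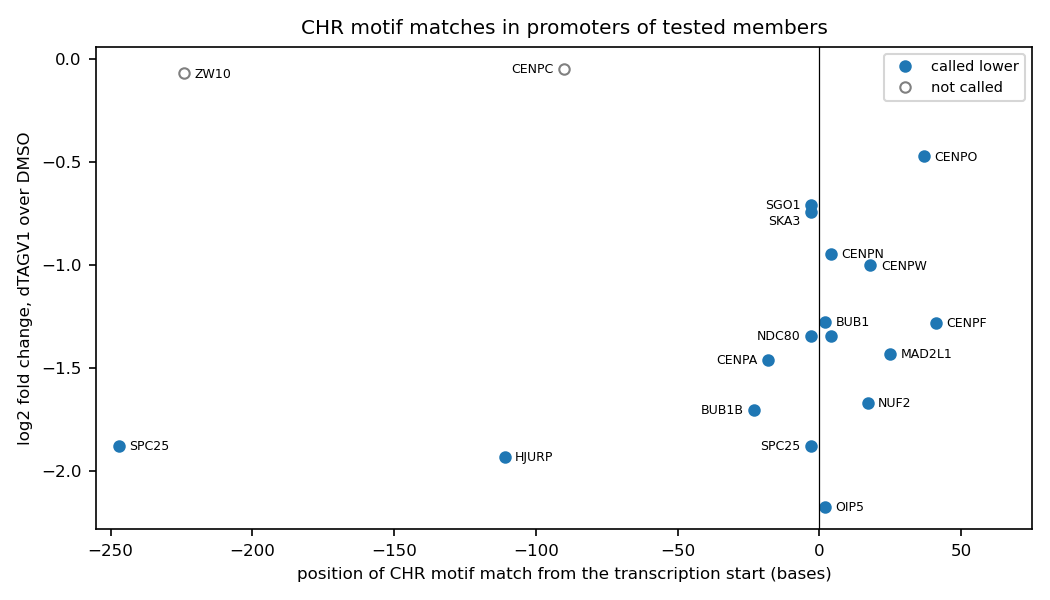
Position of each CHR motif match from the transcription start in bases (x axis) against the log2 fold change of its gene (y axis) for the 17 tested genes with a match, of which NDC80 and SPC25 have 2. The 2 genes that were not called, ZW10 and CENPC, have theirs 224 and 90 bases upstream, HJURP, which fell, has its match 111 bases upstream, and 11 genes that fell have theirs between -30 and 20.

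Among genes of centromeric chromatin, the histone variant fell and the DNA-binding protein was not called. CENPA (GENCODE 29 on GRCh38, chromosome 2, 26764289 to 26801067, plus strand), which encodes CENP-A, had 23.5, 31.1, 33.1 and 17.3 CPM in DMSO replicates 1 to 4 and 13.6, 8.16, 5.60 and 10.4 CPM in dTAGV1 replicates 1 to 4, the order kept for every gene that follows. The groups did not overlap (log2 fold change -1.46, standard error 0.24; edgeR, adjusted p = 4.13e-05). CENPA shares exon sequence with SLC35F6 on the same strand, so reads there were counted to neither, and SLC35F6 had a log2 fold change of -0.11 (not called). CENPB, which binds a short box in alpha satellite DNA, had 66.1, 70.9, 71.2 and 75.9 CPM with DMSO and 60.7, 77.6, 63.0 and 55.6 CPM with dTAGV1. Those values overlap, with a log2 fold change of -0.15 and a 95% interval of -0.36 to 0.057 (edgeR, adjusted p = 0.207).

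CENP-A loading genes had among the largest decreases. HJURP, the chaperone that carries new CENP-A to the centromere (chromosome 2, 233833416 to 233854566, minus strand), had 75.7, 129.7, 112 and 79.9 CPM in the DMSO libraries and 26.9, 23.9, 22.4 and 30.3 CPM in the dTAGV1 libraries. It fell 3.81-fold (log2 fold change -1.93, standard error 0.18; edgeR, adjusted p = 6.83e-07). OIP5, a MIS18 complex subunit also called MIS18 beta (chromosome 15, 41309268 to 41332621, minus strand), was at 18.6, 30.4, 30.7 and 27.7 CPM and at 4.82, 5.14, 5.60 and 7.80 CPM in turn. The lowest DMSO library was thus still over the highest dTAGV1 library, and the decrease was 4.52-fold (log2 fold change -2.18, standard error 0.20; edgeR, adjusted p = 1.43e-09). MIS18A, its partner, fell less, from 36.3, 56.9, 46.2 and 39.1 CPM to 29.8, 38.1, 28.0 and 32.2 CPM. The groups of MIS18A overlapped, with dTAGV1 replicate 2 above DMSO replicate 1, and the log2 fold change was -0.48 (edgeR, adjusted p = 0.00387).

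In the CCAN, 11 of 13 tested genes were lower, by very unequal amounts, against 28.5% of all tested genes. CENPC and CENPT were not called. The network has 14 genes here, and their values are taken by subcomplex. CENPC, the scaffold that binds CENP-A nucleosomes directly, had 47.3, 51.9, 51.5 and 45.3 CPM with DMSO and 55.3, 46.8, 42.7 and 44.7 CPM with dTAGV1. Its groups overlapped fully, and the 95% interval of its log2 fold change was -0.27 to 0.17, so a decrease of the size of CENPA was outside it. In the pair that reads CENP-A with CENPC, CENPL fell from 18.6, 28.2, 21.6 and 18.3 CPM to 12.2, 9.36, 9.13 and 9.46 CPM, and CENPN from 13.4, 19.3, 19.7 and 14.6 CPM to 11.1, 8.16, 5.60 and 9.70 CPM. Neither pair of groups overlapped, and the log2 fold changes were -1.11 and -0.95 (edgeR, adjusted p = 9.10e-06 and 0.000295).

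CENPI had the largest decrease of all 42 tested genes. This subunit of the CENP-HIKM group (chromosome X, 101098218 to 101163681, plus strand) was at 21.6, 31.6, 28.0 and 18.1 CPM in the DMSO libraries and at 2.83, 3.62, 3.24 and 4.26 CPM in the dTAGV1 libraries. In counts these dTAGV1 values were 10, 12, 11 and 18 reads, and the 95% interval of the log2 fold change was -3.27 to -2.34. The decrease was 7.00-fold (log2 fold change -2.81, standard error 0.23; edgeR, adjusted p = 1.24e-10). CENPM, which resembles a small GTPase that does not bind nucleotide, went from 21.3, 26.0, 22.7 and 15.3 CPM to 7.94, 7.55, 4.42 and 8.51 CPM. CENPK went from 18.3, 31.6, 22.9 and 25.7 CPM to 9.64, 9.97, 10.6 and 13.0 CPM. For both, all 4 dTAGV1 libraries lay below the lowest DMSO library, at log2 fold changes of -1.57 and -1.18 (edgeR, adjusted p = 4.33e-07 and 3.35e-06). CENPH was the least changed of the group, with 9.56, 10.9, 12.8 and 7.91 CPM against 4.25, 4.83, 7.95 and 5.91 CPM. Its groups touched, since dTAGV1 replicate 3 exceeded DMSO replicate 4, and its log2 fold change was -0.84 (edgeR, adjusted p = 0.00377).

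The CENP-OPQU genes fell by less than 2-fold. CENPU, the subunit that recruits the kinase PLK1, fell from 44.8, 60.3, 51.5 and 51.7 CPM to 28.6, 28.7, 19.7 and 28.6 CPM, without overlap (log2 fold change -0.98; edgeR, adjusted p = 4.56e-07). CENPQ fell from 30.9, 46.1, 41.1 and 39.6 CPM to 20.1, 26.3, 28.9 and 32.9 CPM, and dTAGV1 replicate 4 lay above DMSO replicate 1 (log2 fold change -0.54; edgeR, adjusted p = 0.00242). CENPO was the least changed, from 17.5, 27.3, 24.0 and 17.3 CPM to 16.7, 11.2, 14.4 and 19.2 CPM (log2 fold change -0.47; edgeR, adjusted p = 0.0274), and its groups overlapped. Without DMSO replicate 2 or 3, or without dTAGV1 replicate 2 or 3, CENPO was no longer called (edgeR, adjusted p = 0.136, 0.0791, 0.0946 and 0.0601). CENPP could not be tested, with 3 counts over the DMSO libraries and 2 over the dTAGV1 libraries.

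Of the histone-fold genes of the CENP-TWX group, CENPW and CENPX fell and CENPT was not called. CENPW, the partner of CENP-T, went from 23.0, 48.0, 38.2 and 26.0 CPM to 16.4, 14.2, 17.7 and 18.9 CPM (log2 fold change -1.0; edgeR, adjusted p = 0.000511). CENPX, which also serves the Fanconi anaemia pathway, went from 105, 94.1, 87.2 and 88.3 CPM to 59.2, 69.2, 63.3 and 70.7 CPM (log2 fold change -0.51; edgeR, adjusted p = 3.96e-05). Neither overlapped between groups. CENPT, which links DNA to the NDC80 complex, had 16.7, 14.2, 15.2 and 16.6 CPM with DMSO and 18.1, 17.5, 13.0 and 14.2 CPM with dTAGV1, and its 95% interval was -0.33 to 0.34.

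**Figure D3:**
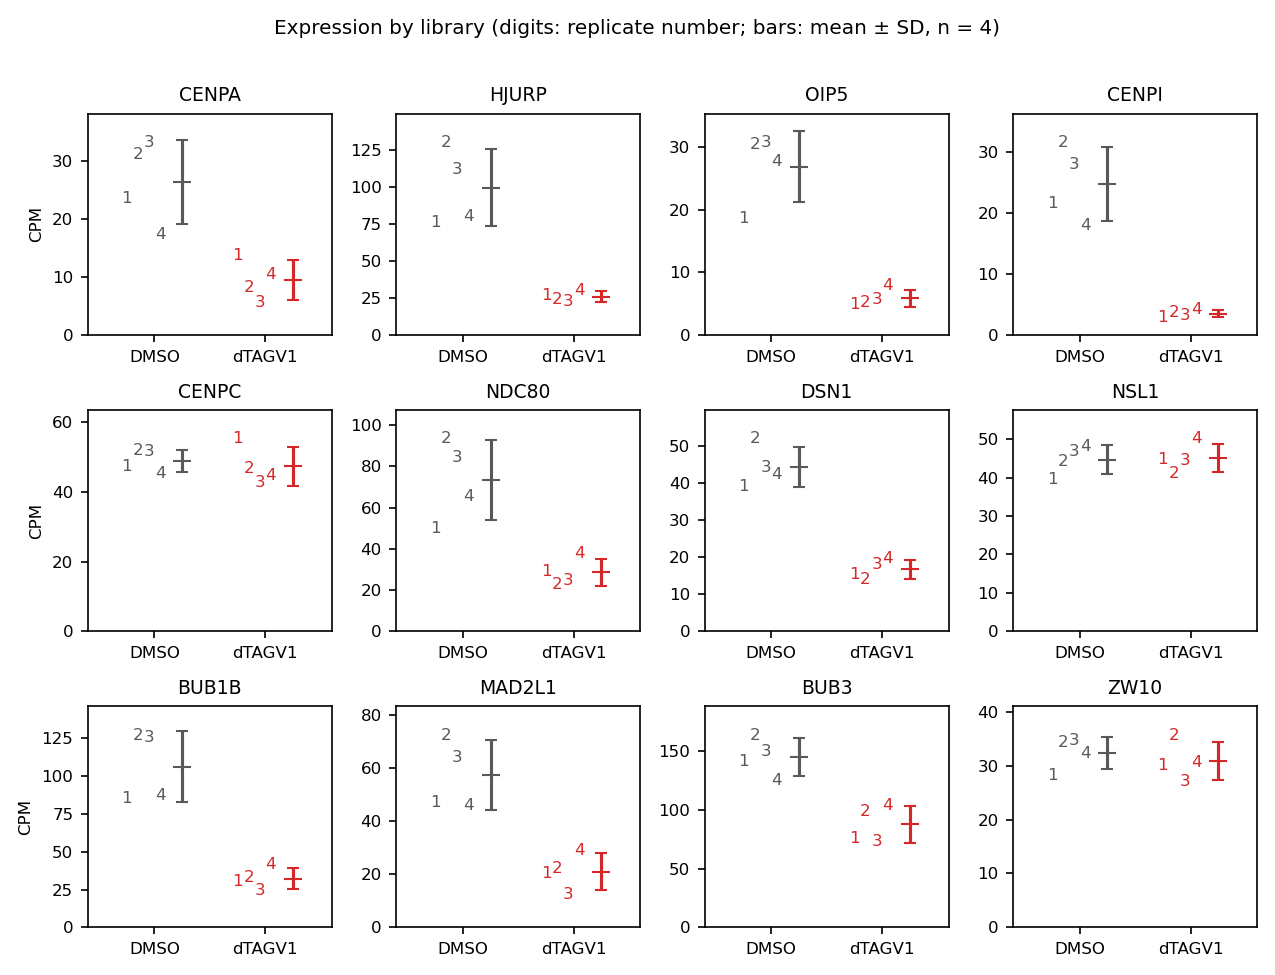
CPM (y axis, from 0) of 12 genes in each library, shown by its replicate number, with the mean and SD of each group (n = 4). CENPA, HJURP, OIP5, CENPI, NDC80, DSN1, BUB1B, MAD2L1 and BUB3 separate the groups, whereas CENPC, NSL1 and ZW10 overlap.

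In the outer kinetochore, the NDC80 complex fell in all of its genes and the MIS12 complex in some. All 4 NDC80 complex genes, which encode the main microtubule coupler, were at least 2-fold lower and none overlapped between groups. Among all tested genes, 9.23% fell at least 2-fold and 25.1% had every dTAGV1 library below every DMSO library. NDC80 (chromosome 18, 2571511 to 2616635, plus strand) had 50, 93.3, 84.3 and 65.5 CPM with DMSO and 29.2, 22.7, 24.7 and 37.6 CPM with dTAGV1. NUF2, its coiled-coil partner, had 80.9, 155, 134 and 97.9 CPM and 35.1, 34.1, 28.3 and 48.0 CPM. Log2 fold changes were -1.35 for NDC80 and -1.67 for NUF2 (edgeR, adjusted p = 0.000221 and 0.000533). SPC24 and SPC25 form the end that docks on the inner kinetochore. SPC24 fell from 23.2, 35.7, 30.9 and 23.7 CPM to 10.2, 9.67, 8.54 and 10.6 CPM, and SPC25 from 18.3, 29.9, 23.7 and 22.7 CPM to 4.82, 3.62, 5.60 and 10.9 CPM. These were log2 fold changes of -1.53 and -1.88 (edgeR, adjusted p = 3.78e-08 and 1.21e-06), and dTAGV1 replicate 4 held the highest SPC25 value of its group.

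KNL1, the platform for BUB1 and BUB3, fell from 90.2, 166, 126 and 108 CPM to 58.7, 42.6, 46.8 and 63.6 CPM (log2 fold change -1.21; edgeR, adjusted p = 0.000707). ZWINT, its binding partner, fell from 48.6, 90.0, 81.1 and 57.9 CPM to 31.2, 36.6, 33.0 and 46.8 CPM (log2 fold change -0.90; edgeR, adjusted p = 0.00247). Within the MIS12 complex, which ties the KMN network to CENP-C and CENP-T, the 4 subunits differed widely. DSN1, the subunit phosphorylated by Aurora B, fell from 39.1, 51.9, 44.0 and 42.3 CPM to 15.3, 13.9, 18.0 and 19.6 CPM, a log2 fold change of -1.40 (edgeR, adjusted p = 4.07e-09). MIS12 went from 14.2, 23.6, 22.1 and 17.6 CPM to 13.9, 11.2, 14.1 and 15.6 CPM, with overlap, a log2 fold change of -0.50 (edgeR, adjusted p = 0.0179). Without DMSO replicate 2 or 3, or without dTAGV1 replicate 2, MIS12 was no longer called (edgeR, adjusted p = 0.0856, 0.0627 and 0.0543). NSL1 had 39.6, 44.1, 47.0 and 48.2 CPM with DMSO and 44.8, 41.1, 44.5 and 50.1 CPM with dTAGV1, and PMF1 had 20.8, 21.5, 14.9 and 18.5 CPM and 21.3, 19.3, 24.5 and 22.0 CPM. Neither was called, with 95% intervals of -0.20 to 0.23 for NSL1 and -0.11 to 0.51 for PMF1, which do not reach the change of DSN1. PMF1 shares exons with the read-through gene PMF1-BGLAP, so reads there were counted to neither.

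SKA genes, whose products help kinetochores follow shrinking microtubules, also differed. SKA3 fell from 38.3, 54.0, 37.4 and 42.0 CPM to 26.9, 23.9, 26.2 and 25.5 CPM, without overlap (log2 fold change -0.75; edgeR, adjusted p = 2.31e-05). SKA2 had 134, 172, 170.2 and 147 CPM with DMSO and 155, 145, 193 and 188 CPM with dTAGV1, and it was not called (95% interval -0.072 to 0.33). SKA1 was too low to be tested, at 3, 3, 1 and 3 counts with DMSO and 0 in all 4 dTAGV1 libraries. Taking 3 counts over the group as the limit that 0 allows, the pooled DMSO value of SKA1 was 3.09-fold that limit. This takes the 10 DMSO counts as exact, so the true bound is lower.

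All 5 tested checkpoint genes fell and none overlapped between the groups. Over all tested genes, 28.5% were lower and 25.1% had every dTAGV1 library below every DMSO library. BUB1B encodes BUBR1, a part of the mitotic checkpoint complex that binds the anaphase-promoting complex (chromosome 15, 40161023 to 40221136, plus strand). It had 84.7, 127, 125 and 86.8 CPM with DMSO and 30.6, 32.6, 24.2 and 41.4 CPM with dTAGV1, a 3.26-fold decrease (log2 fold change -1.71, standard error 0.18; edgeR, adjusted p = 3.28e-06). BUB1B shares exons with the read-through gene BUB1B-PAK6. MAD2L1, which encodes MAD2, had 47.3, 72.6, 64.3 and 46.0 CPM and 20.4, 22.4, 12.4 and 29.1 CPM, with the lowest value in dTAGV1 replicate 3. TTK, the gene of the kinase MPS1 that starts checkpoint signalling, had 36.3, 63.9, 55.0 and 36.1 CPM and 20.1, 13.0, 18.6 and 22.2 CPM. BUB1, the kinase that marks the inner centromere for shugoshin, had 61.5, 97.4, 83.8 and 63.8 CPM and 39.4, 28.7, 25 and 33.1 CPM. Their log2 fold changes were -1.43, -1.36 and -1.28 (edgeR, adjusted p = 0.000158, 6.04e-05 and 4.31e-06). BUB3, the WD40 protein that carries BUB1 and BUBR1 to KNL1, fell least, from 141, 164, 149 and 125 CPM to 75.4, 98.5, 73.1 and 104 CPM (log2 fold change -0.72; edgeR, adjusted p = 8.46e-06). MAD1L1 had 3 counts over the DMSO libraries and 1 over the dTAGV1 libraries and was not tested. On the opposite strand, where 48.4% of 3324 tested genes over the whole table changed, 3 of 4 testable genes of the 45 did (OIP5, CENPU and SPC24).

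CENPE and CENPF, proteins of the outer corona, both fell. CENPE, a kinesin that carries chromosomes to the metaphase plate, went from 126, 254, 197 and 152 CPM to 60.1, 58.0, 71.9 and 90.3 CPM, and CENPF from 479, 1033, 799 and 589 CPM to 288, 273, 291 and 337 CPM. Log2 fold changes were -1.37 and -1.28, with standard errors of 0.26 and 0.25 (edgeR, adjusted p = 0.00294 and 0.00385), and the DMSO libraries ranged over more than 2-fold in each. In the RZZ complex, which brings MAD1 and dynein to unattached kinetochores, KNTC1 (ROD) fell from 19.1, 34.5, 25.9 and 19.3 CPM to 9.07, 10.3, 6.48 and 10.2 CPM. ZWILCH fell from 71.3, 110.5, 100.1 and 82.3 CPM to 44.8, 42.6, 51.6 and 53.9 CPM, and these were log2 fold changes of -1.45 and -0.91 (edgeR, adjusted p = 1.77e-06 and 1.42e-06). ZW10, which also works in membrane traffic, had 28.1, 34.2, 34.7 and 32.1 CPM with DMSO and 30.0, 35.6, 27.1 and 30.5 CPM with dTAGV1 and was not called (95% interval -0.32 to 0.18). The shugoshin SGO2 fell from 86.1, 187, 151 and 122 CPM to 56.1, 55.3, 59.2 and 71.0 CPM, without overlap (log2 fold change -1.17; edgeR, adjusted p = 0.00332). SGO1, which guards cohesin at centromeres, fell from 18.6, 38.8, 30.7 and 23.2 CPM to 14.5, 13.6, 20.9 and 19.2 CPM, with overlap (log2 fold change -0.71; edgeR, adjusted p = 0.00613).

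Set side by side, subcomplexes differed in their medians and in how alike their genes were. CENP-A deposition (-1.93, 3 genes) and the NDC80 complex (-1.60, 4 genes) had the lowest median log2 fold changes. CENP-HIKM (-1.38), the checkpoint genes (-1.36) and the corona pair CENPE and CENPF (-1.33) followed. The KNL1 complex (-1.06), CENP-LN (-1.03), the shugoshins (-0.94), RZZ (-0.91) and centromeric chromatin (-0.81) came next. Medians were -0.54 for CENP-OPQU, -0.51 for CENP-TWX, -0.31 for the 2 tested SKA genes and -0.24 for the MIS12 complex. CENP-C, with CENPC as its only gene, was the least changed (-0.049). The NDC80 genes spanned -1.88 to -1.35, while the MIS12 complex spanned -1.40 to 0.20 and CENP-HIKM -2.81 to -0.84. Summed over each complex, CPM with dTAGV1 was 0.334 of that with DMSO for both the NDC80 complex (80.9 ± 18.2 and 242 ± 63.3 CPM, SD, n = 4 each) and CENP-HIKM (0.335). All 45 genes together summed to 2404, 3963, 3361 and 2695 CPM with DMSO and to 1533, 1498, 1514 and 1797 CPM with dTAGV1, a ratio of means of 0.511. The ratio was 0.764 for the MIS12 complex, and 0.983 for the SKA complex, whose sum is mostly SKA2. Differences between subcomplexes were not tested, and with 1 to 6 genes each they describe these genes alone. Over the 42 genes, Spearman's rho of the log2 fold change with the length of the gene on the genome was -0.24, and 0.072 over 12093 tested genes, where genes share libraries and are not independent.

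The 4 DMSO libraries were themselves ordered in these genes. Of the 35 genes that fell, 30 had their highest DMSO value in replicate 2 and 24 their lowest in replicate 1. Over all 12618 tested genes, these numbers were 3071 and 3873. Relative to the mean of the DMSO libraries, replicate 2 was higher and replicate 1 lower in the median on the log2 scale (0.34 and -0.35). Among the dTAGV1 libraries, 25 of the 35 were highest in replicate 4, against 3253 of all 12618 tested genes. The median coefficient of variation over the DMSO libraries was 22.3% for the 35 genes and 8.52% for the 7 that were not called. It was 9.08% over 9317 tested genes with a DMSO mean of at least 10 CPM. The 19 tested genes of a G2 and mitosis list showed the order too, with 17 highest in DMSO replicate 2 and 14 highest in dTAGV1 replicate 4. The part of this order in the comparison was not tested directly. Without DMSO replicate 2, 33 of the 42 genes were lower and the median log2 fold change was -0.93. Without DMSO replicate 1, 35 were lower and the median was -1.17. Over all tested genes, 26.7% were lower in the first of these fits and 27.5% in the second.

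**Figure D4:**
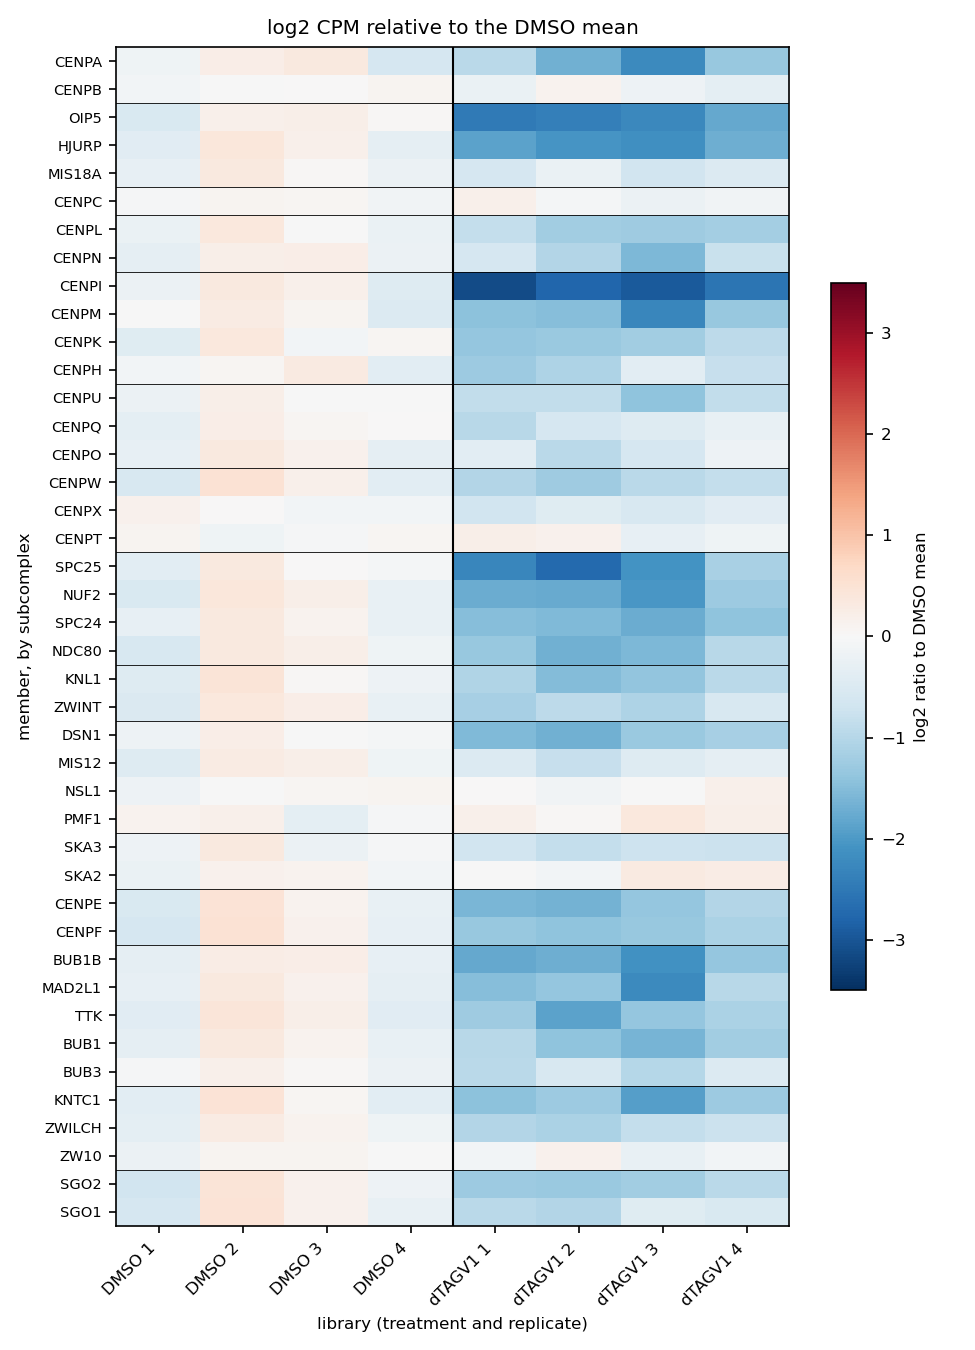
Log2 CPM of each tested gene (rows, by subcomplex) in each library (columns) relative to its DMSO mean, from blue (lower) to red (higher). DMSO replicate 2 is the reddest column, with the highest DMSO value in 33 of the 42 genes, and all 35 genes that fell have lower dTAGV1 means.

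Other genes of the same pathways were taken from lists that hold none of the 45. Of 19 tested further centromere and kinetochore genes, 12 were lower and 1 higher, with a median log2 fold change of -0.63. They ranged from ERCC6L, the PICH translocase of anaphase bridges (-1.64), to CLASP1, a microtubule plus-end protein (0.50). All 5 genes of the chromosomal passenger complex and PLK1 were lower, with AURKB, the Aurora B kinase, at -1.86. In the anaphase-promoting complex, the target of the checkpoint, 6 of 15 were lower and 3 higher, with a median of -0.20. CDC20, its activator and the direct target of MAD2, fell most there (-2.01), and ANAPC13, a core subunit, rose most (0.36). The background of lower calls stays at 28.5%.

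G2 and mitosis genes fell in 19 of 19 tested cases, with a median of -1.24 and the lowest value for ECT2, a cytokinesis factor (-1.89). S-phase genes fell in 18 of 20, with a median of -1.28, while CHAF1B, a histone chaperone subunit, rose (1.75). Of 11 tested genes of the DREAM and MuvB complexes and their partners, 7 were lower and 2 higher. MYBL2, which joins MuvB to activate G2 genes, fell most (-2.05), while LIN54, the MuvB subunit that contacts the CHR, rose (0.84). All values in this paragraph are log2 fold changes from the same edgeR fit, and those named here had adjusted p under 0.05. How far the decrease of kinetochore genes goes with that of S-phase and G2 genes was not tested.

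**Figure D5:**
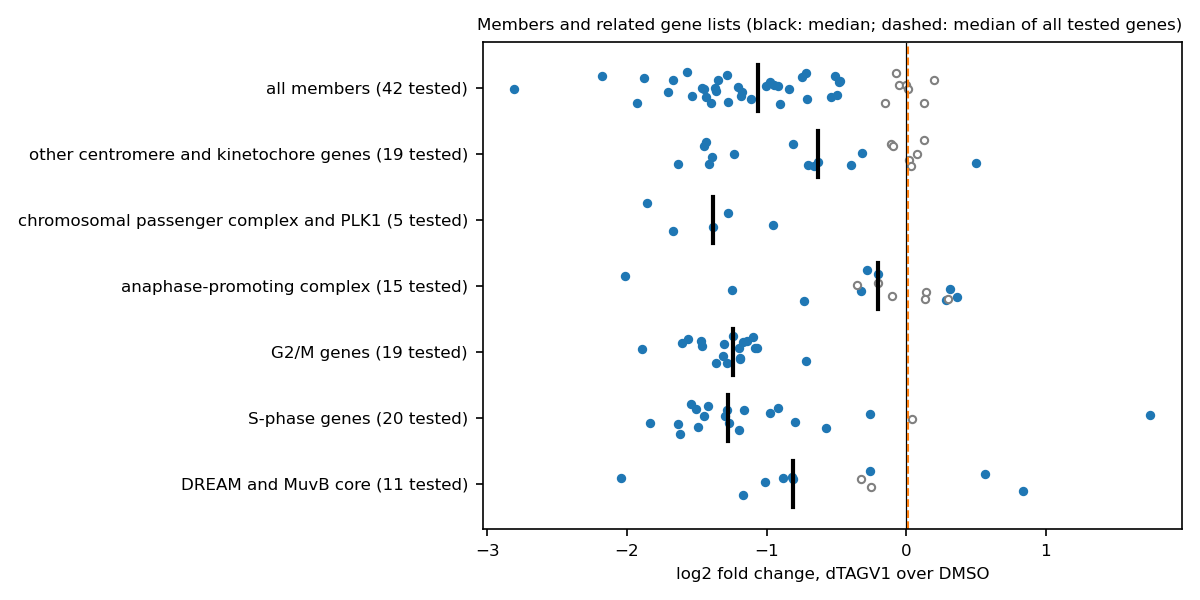
Log2 fold changes (x axis) of the 42 tested genes and of 6 related lists, with filled points for genes that passed the test, open points for those that did not, a black bar at each median and a dashed line at the median of all tested genes (0.015). The 45-gene list (median -1.06) lies near the G2 and mitosis list (-1.24) and the S-phase list (-1.28), and the anaphase-promoting complex lies closer to 0 (-0.20).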

How the data were processed

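Reads from 3′ ends of poly(A) RNA were made with the Lexogen QuantSeq FWD V2 kit, per the labels' protocols. The authors deposited whole-number counts of reads per gene, 1 table per library, and the submitters' processing notes name FastQC, fastp, STAR, HTSeq, DESeq2 and GRCh38 without roles. The annotation and whether molecular identifiers were used are not given in the sources used here. Sense-strand counts were used, and 56.7% to 62.8% of reads, given to no gene, stayed out. Symbols came from a table that held 61481 of 78932 identifiers, and coordinates from GENCODE 29 on GRCh38.

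Counts were tested with edgeR 4.0.16 in R 4.3.3 (filterByExpr, TMM, robust quasi-likelihood F test) over all 12618 genes left, with Benjamini-Hochberg adjustment and a threshold of 0.05. A standard error is the absolute log2 fold change divided by the square root of F. Alternatives were DESeq2 1.42.0, limma-voom (limma 3.58.1), other scalings and filters, counts irrespective of strand, a replicate block and leaving out each library. The fit was tested on simulated data. It recovered 46.3% of changes of 0.5 log2 units, 81.5% of changes of 1 and 97.1% of changes of 2, with 7 false calls. Small changes can thus be missed among genes not called. Few genes were changed in the simulation, unlike in these data, so its shares need not hold here. Pairs of libraries within a group differed by 1.89 to 5.65 chi-square units per degree of freedom, above sampling noise. The genes and lists were chosen with earlier results of these data known. Values by library are given for genes called at least 2-fold, for the most and least changed gene of each subcomplex and for untested genes. Further genes so described were chosen after their values were seen, as were the printed promoters. From other lists the largest called changes are named, except 1 that is not reported here. Figures were drawn with matplotlib 3.10.9.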

Additional observations from a re-analysis of the deposited data

Results flagged for a closer look

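In groups of 4 libraries, a library that stood apart from the rest of its group by Dixon's 95% limit was found in 3 of 89 groups, and chance alone gives about 1 in 20 groups. CENPL was at 12.2 CPM in dTAGV1 replicate 1, above the other dTAGV1 libraries, and still below every DMSO library. CENPU was at 19.7 CPM in dTAGV1 replicate 3, below the others. MAD1L1 was at 0.237 CPM in dTAGV1 replicate 4, which is 1 count where the other libraries of the group had 0.

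Opposite-strand reads were not used in the comparisons above. Of the 45 genes, 4 had enough of them to be tested and 3 differed by the edgeR test at an adjusted p under 0.05, against 48.4% of 3324 genes over the whole table. For OIP5, opposite-strand counts were 10, 16, 5 and 11 with DMSO and 31, 38, 38 and 40 with dTAGV1, a log2 fold change of 1.78 (edgeR, adjusted p = 3.10e-06), while its sense counts fell. OIP5-AS1, the noncoding gene that overlaps it there, was not called on its own strand (log2 fold change 0.13; edgeR, adjusted p = 0.185). For SPC24 they were 6, 8, 5 and 15 with DMSO and 22, 19, 18 and 15 with dTAGV1, a log2 fold change of 1.1 (edgeR, adjusted p = 0.00882). For CENPU they were 20, 27, 21 and 26 with DMSO and 13, 12, 13 and 10 with dTAGV1, a log2 fold change of -0.98 (edgeR, adjusted p = 0.00501). PRIMPOL, on the strand opposite CENPU, fell as well (log2 fold change -0.82).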

How the results depend on the processing

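The number of lower genes among the 42 was 35 with RLE scaling, library size scaling, no filter, limma-voom and DESeq2, and each time they were the same 35 genes. Counts irrespective of strand gave 32 of 40 tested, against 27.6% of all genes tested that way. There MIS12 was not called, OIP5 and CENPN were not tested, and CENPO moved to -0.89 (the cause was not tested). When only genes averaging 100 counts or more were kept, 20 of 25 tested genes were lower, against 31.2% of all genes so kept. There 4120 genes were called over the whole table in place of 7302, since fewer genes were tested. Leave-one-out fits, each without 1 library, gave 33 to 35 lower genes, 0 higher, medians of -1.17 to -0.93 and 6861 to 7232 genes over the whole table. In these fits 26.4% to 28.6% of all tested genes were lower. Of 668 alternative values for single genes, 642 kept their direction and side of the threshold, 8 were weaker (CENPO and MIS12) and 1 stronger (CENPB, -0.27 without dTAGV1 replicate 2; edgeR, adjusted p = 0.0242). The 17 changes of sign were those of CENPT and NSL1, which lie near 0. CENPT was at -0.0091 with RLE scaling, -0.074 with library size scaling, -0.023 without a filter, -0.035 irrespective of strand, -0.0043 with the replicate block, -0.010 with limma-voom and -0.0088 with DESeq2, and at -0.084 to 0.065 with a library left out. NSL1 was at -0.058 with library size scaling, -0.0070 without a filter, -0.0032 with a mean of at least 100 counts and -0.014 irrespective of strand, and at -0.058 to 0.048 with a library left out.

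The replicate numbers were not taken to pair the libraries. Deviations from the group means correlated at 0.135, -0.022, 0.025 and 0.036 for numbers 1 to 4, and 3 of 8 libraries correlated best with their own number. With the replicate block, the same 35 genes were lower, the median was -1.04 and 7434 genes were called over the whole table. CENPP, SKA1 and MAD1L1 had too few counts for any statement on change beyond the ratio given for SKA1.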
